A study of Mustela putorius furo with 2 samples.

Results

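The glypicans GPC1 to GPC6 were followed across the cell classes of the newborn ferret cortex. They are 6 of the 21317 gene names that held at least 1 unique molecular identifier (UMI, 1 counted RNA molecule) in the single-cell data. The family was chosen by its level and its share of positive cells across marker-gated progenitors, glia, neurons and vascular cells. Those values chose the members, so they are given as a description with no test. All 6 names match ferret gene symbols in RefSeq, and all 6 held UMIs in both libraries, from 132 (GPC3, library B) to 8384 (GPC6, library A).

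Glypicans are heparan sulfate proteoglycans whose core protein is tied to the cell surface by a lipid (GPI) anchor. Their sugar chains bind growth factors, morphogens and guidance cues, and enzymes that cut the anchor or the core can release them from the cell. The family falls into 2 branches by sequence, one with GPC1, GPC2, GPC4 and GPC6 and one with GPC3 and GPC5. In rodents, GPC4 and GPC6 released by astrocytes promote the formation of excitatory synapses, and GPC3 on radial glia binds the receptor UNC5D on migrating cortical neurons.

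The cells came from dorsal cortex of wild-type (WT) ferret pups at postnatal day 3, split into single cells with papain and run on the 10x Genomics Chromium platform. There was no treatment and no second genotype, so every contrast is between cell classes within the same tissue pieces. The study has 2 replicates, deposited as 1 matrix whose barcodes carry 2 suffixes. The labels leave the suffixes unmatched to replicates and do not state that separate animals were used, so the spread between them may be technical.

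Library A held 9782 cells and 41836475 UMIs (median 3602.5 UMIs per cell), and library B held 5005 cells and 18907140 UMIs (median 3068). Only 21 barcode sequences occurred in both. Of 14773 cells kept, 9404 were placed in 13 classes by sets of marker genes. Left out were 216 cells that met a vascular, microglial, erythroid or ependymal gate beside another gate. A further 5132 cells stayed unassigned, either because they met no gate or because they met neural gates that exclude each other. A class name stands for its marker gate and not for an established identity. Levels are in CPM, for which the UMIs of a gene were divided by all UMIs of the class in that library and scaled to a fixed total. With 2 libraries, each value is given for library A and then library B, and intervals are exact 95% intervals for counting error alone. Levels were compared between classes and never between genes, because the share of each transcript that was counted is not known.

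The gated glia were CLU glia (461 and 212 cells, non-dividing, with astrocyte markers such as CLU and AQP4 beside radial glia markers) and dividing HOPX glia (255 and 139 cells). Gliogenic progenitors (305 and 136 cells) held EGFR with OLIG1 or OLIG2, and oligodendrocyte precursors (90 and 29 cells) held PDGFRA with further markers of that lineage. EOMES progenitors, the intermediate progenitors of excitatory neurons, were split into dividing (504 and 238 cells) and non-dividing cells (822 and 373). Excitatory neurons (2830 and 1274 cells) stood beside a small class with deep-layer markers (138 and 51). Inhibitory neurons were split into medial-eminence interneurons (266 and 52 cells, with LHX6, NXPH1 or SST) and caudal-eminence interneurons (392 and 124 cells, with ADARB2 or PROX1). Endothelial cells (104 and 321), perivascular cells (33 and 38) and microglia (108 and 109) completed the set.

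The 2 interneuron classes were compared by 2 markers that the gates did not use. MAF, a transcription factor of medial-eminence interneurons, stood at 1318 and 1412 CPM in medial-eminence interneurons, against 124 and 147 CPM in caudal-eminence interneurons. NR2F2, a transcription factor of the caudal eminence, stood at 2.36 and 6.79 CPM in medial-eminence interneurons, against 315 and 322 CPM in caudal-eminence interneurons. By these markers the 2 interneuron classes matched their names, and no such check is given for the other classes.

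RNA that floats free in the droplets can give UMIs in cells that do not express a gene. NEUROD2, a transcription factor of excitatory neurons, was read at 62.1 and 65.0 CPM in microglia, against 624 and 596 CPM in excitatory neurons. It was seen in 15.7% and 16.5% of microglia (median 2519.5 and 2044 UMIs) and in 86.0% and 83.8% of excitatory neurons (median 3280.5 and 2859.5). Microglial levels are no common floor, since GPC5 and GPC6 stood lower in excitatory neurons than in microglia. The part of free RNA in the levels of microglia, endothelial cells and perivascular cells was not tested.

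GPC6 had its highest level in medial-eminence interneurons. It stood there at 1578 CPM in library A (interval 1494 to 1665) and 1717 CPM in library B (1512 to 1943), with a mean of 1648 ± 98.9 CPM (SD, n = 2 libraries). In caudal-eminence interneurons, the other class of inhibitory neurons, it stood at 21.5 CPM (13.6 to 32.3) and 19.1 CPM (7.02 to 41.7). The ratio of medial-eminence to caudal-eminence levels was 73.3 in library A (48.6 to 116) and 89.7 in library B (40.7 to 247), and the levels of the 2 classes did not overlap. Both are inhibitory neurons that migrate into the cortex from the ventral forebrain.

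The difference was also plain cell by cell. A GPC6 UMI was found in 90.2% and 94.2% of medial-eminence interneurons (median depth 3162 and 2681 UMIs), against 3.83% and 4.03% of caudal-eminence interneurons (2639 and 2367 UMIs) and 24.1% and 21.1% of microglia. The median medial-eminence cell held 4 GPC6 UMIs in each library, whereas 377 of 392 and 119 of 124 caudal-eminence cells held 0. With all cells thinned to 1500 UMIs, the share was 80.1% and 86.5% in medial-eminence cells, against 2.81% and 2.42% in caudal-eminence cells. Medial-eminence interneurons made up 2.72% and 1.04% of the cells and held 15.9% and 7.40% of all GPC6 UMIs of their library.

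Within medial-eminence interneurons, GPC6 followed neither of the markers looked at. Cells with SST, a neuropeptide of a subset of these interneurons, had 1595 CPM in library A and 1475 CPM in library B (75 and 11 cells), and cells without it had 1571 and 1786 CPM. Cells with LHX6, the transcription factor that specifies this lineage, had 1534 and 1751 CPM, and cells without it had 1671 and 1663 CPM. In both splits the 2 libraries ran in opposite directions.

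**Figure D1:**
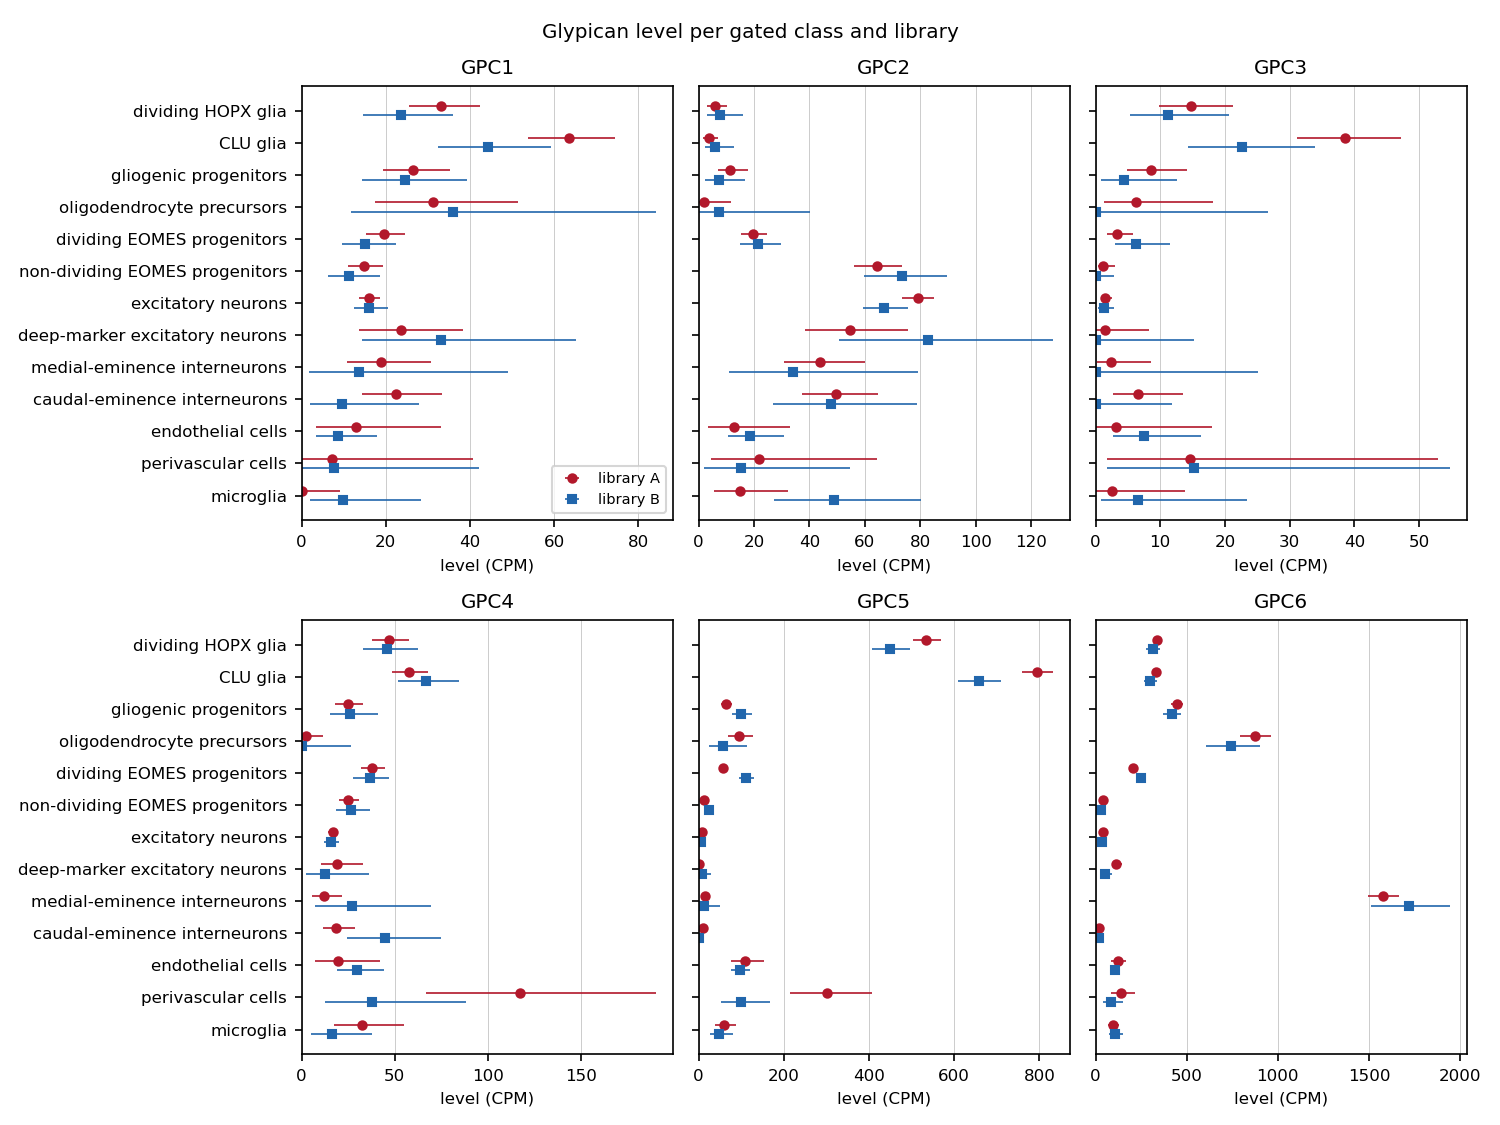
Level of each glypican (CPM, x axis, linear, a separate scale per panel) in 13 marker-gated classes, for library A (circles) and library B (squares), with exact 95% Poisson intervals for counting error. GPC6 stands highest in medial-eminence interneurons (1578 and 1717 CPM), GPC5 and GPC3 in CLU glia, and GPC2 in the excitatory lineage.

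Among glia, GPC6 was highest in oligodendrocyte precursors, the second class in its order. They had 873 and 743 CPM (mean 808 ± 92.3, SD, n = 2), against 446 and 419 CPM in gliogenic progenitors, for ratios of 1.96 (1.73 to 2.21) and 1.77 (1.40 to 2.23). A GPC6 UMI was found in 90.0% and 82.8% of oligodendrocyte precursors and in 68.5% and 63.2% of gliogenic progenitors. Precursors with SOX10, a transcription factor of the oligodendrocyte lineage, had 961 and 878 CPM (54 and 18 cells), and those without it had 732 and 525 CPM (36 and 11 cells).

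GPC6 then declined in steps through the other progenitors. Gliogenic progenitors, at 446 and 419 CPM, stood above dividing HOPX glia, at 338 and 314 CPM, and CLU glia, at 330 and 300.2 CPM. The values of these 2 glial classes overlapped. Gliogenic progenitors with DLX1, a transcription factor of the ventral forebrain, had GPC6 at 341 and 283 CPM, against 475 and 449 CPM without it. Split by its relative DLX2, the libraries ran in opposite directions, with 427 and 444 CPM with DLX2, against 450 and 413 CPM without.

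In the excitatory lineage GPC6 was highest in dividing progenitors. Dividing EOMES progenitors had 205 and 247 CPM, against 40.7 and 27.2 CPM in non-dividing EOMES progenitors, for ratios of 5.05 (4.22 to 6.09) and 9.05 (6.43 to 13.1). Dividing EOMES progenitors are also deeper (median 6810.5 and 6181 UMIs, against 3871.5 and 3360), which CPM scales for. Excitatory neurons, at 39.9 and 36.6 CPM, did not differ from non-dividing progenitors beyond the spread between libraries. Deep-marker excitatory neurons had 114 and 53.8 CPM, from only 77 and 13 UMIs, and endothelial cells (123 and 105 CPM), perivascular cells (139 and 83.3 CPM) and microglia (94.4 and 107 CPM) overlapped one another.

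**Figure D2:**
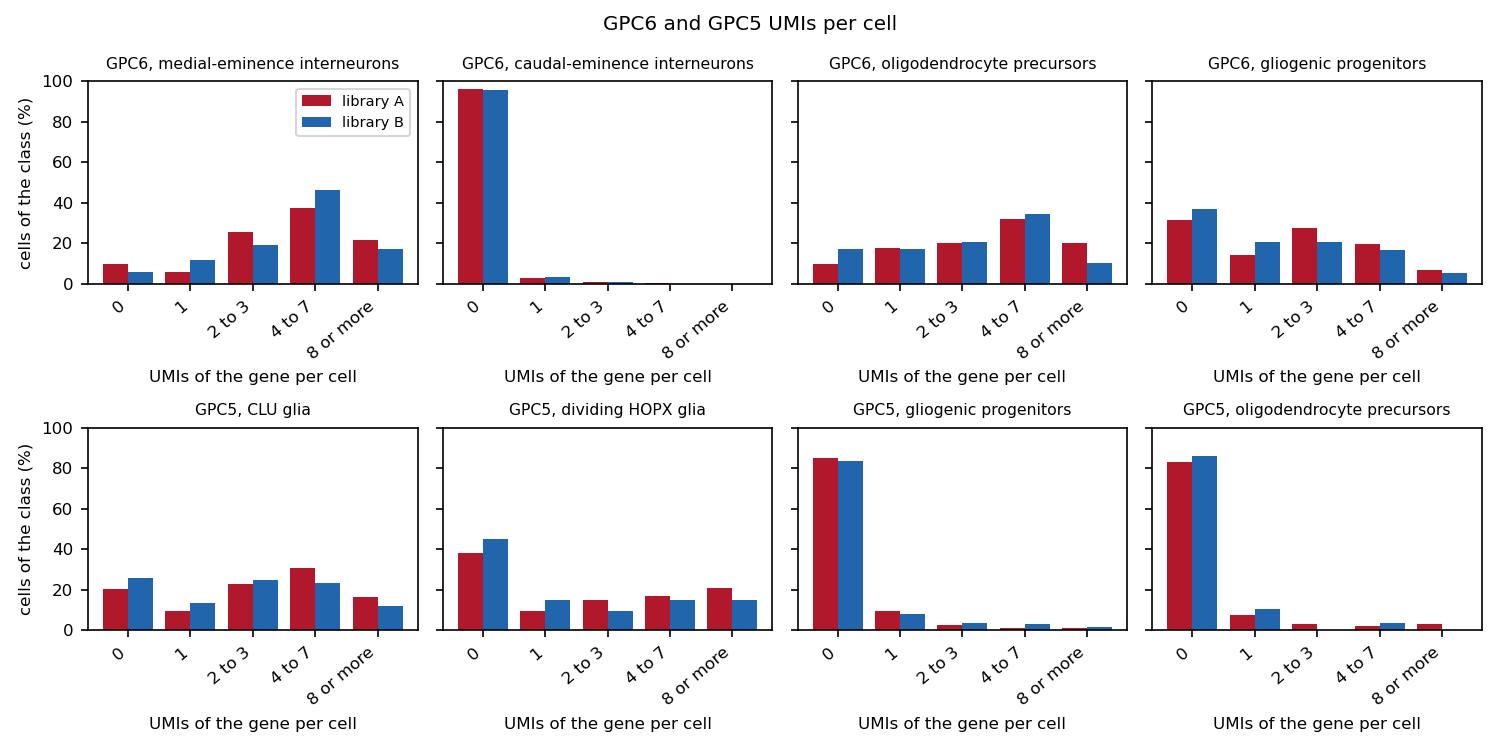
Share of cells (%, y axis) by the number of GPC6 UMIs (top) or GPC5 UMIs (bottom) they held, in 4 classes each, for library A (red) and library B (blue). In medial-eminence interneurons 9.77% and 5.77% of cells held no GPC6, against 96.2% and 96.0% of caudal-eminence interneurons.

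GPC5 was highest in CLU glia and dividing HOPX glia. It stood at 794 CPM (759 to 831) and 658 CPM (609 to 709) in CLU glia, with a mean of 726 ± 96.7 CPM (SD, n = 2). In dividing HOPX glia it stood at 535 CPM (502 to 568) and 449 CPM (406 to 496). A GPC5 UMI was found in 79.4% and 74.1% of CLU glia (median 5095 and 4677 UMIs), against 15.7% and 11.0% of microglia (2519.5 and 2044 UMIs).

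The gliogenic and oligodendrocyte branches held much less. Gliogenic progenitors had 64.8 and 99.7 CPM and oligodendrocyte precursors had 95.4 and 57.7 CPM, and these classes overlapped. The level in CLU glia was 12.3 times (10.1 to 14.95) and 6.60 times (5.14 to 8.58) that in gliogenic progenitors. Against excitatory neurons, at 7.09 and 5.20 CPM, the ratio was 112 (88.2 to 144) and 127 (82.1 to 206). GPC6 ran the other way between glial branches, being lower in CLU glia than in gliogenic progenitors.

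GPC5 was uneven within several classes. In dividing HOPX glia, 38.0% and 45.3% of cells held no GPC5 while 20.8% and 15.1% held at least 8 UMIs. Part of that class also carried EGFR, the growth factor receptor that marks gliogenic progenitors, and those cells had 124 and 199 CPM (36 and 23 cells), against 606 and 503 CPM in cells without EGFR (219 and 116 cells). CLU glia with CRYAB, a small heat shock gene that marks truncated radial glia in ferret, had 429 and 291 CPM (26 and 20 cells), against 817 and 701 CPM without it. GPC6 was not lower in both libraries in either split, with 277 and 333 CPM with EGFR, against 349 and 311 CPM without, and 331 and 357 CPM with CRYAB, against 330 and 294 CPM without.

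GPC5 was also uneven in progenitors of neurons. Dividing EOMES progenitors that also held HOPX, the radial glia marker, had GPC5 at 121 and 281 CPM (124 and 60 cells), against 33.7 and 36.3 CPM in those without HOPX (380 and 178 cells). Their GPC6 was 213 and 313 CPM with HOPX, against 202 and 217 CPM without. Oligodendrocyte precursors with SOX10 had GPC5 at 53.8 and 23.4 CPM, from 11.1% of cells in each library, against 163 and 113 CPM without SOX10. In library B these were 2 UMIs in 18 cells, against 6 UMIs in 11 cells, too few to tell the levels apart. Their GPC6 was higher with SOX10.

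Both genes were found in the same cells most often in CLU glia. There, 54.7% and 47.6% of cells held both, and a further 114 and 56 cells held GPC5 alone. In medial-eminence interneurons 3.01% and 3.85% held both (8 and 2 cells), and no cell in either library held GPC5 without GPC6. As 90.2% and 94.2% of that class held GPC6, few such cells could occur. Whether the genes shared cells more often than their separate shares give was not tested in any class. In gliogenic progenitors 172 and 69 cells held GPC6 alone, and 8 and 5 cells held GPC5 alone.

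**Figure D3:**
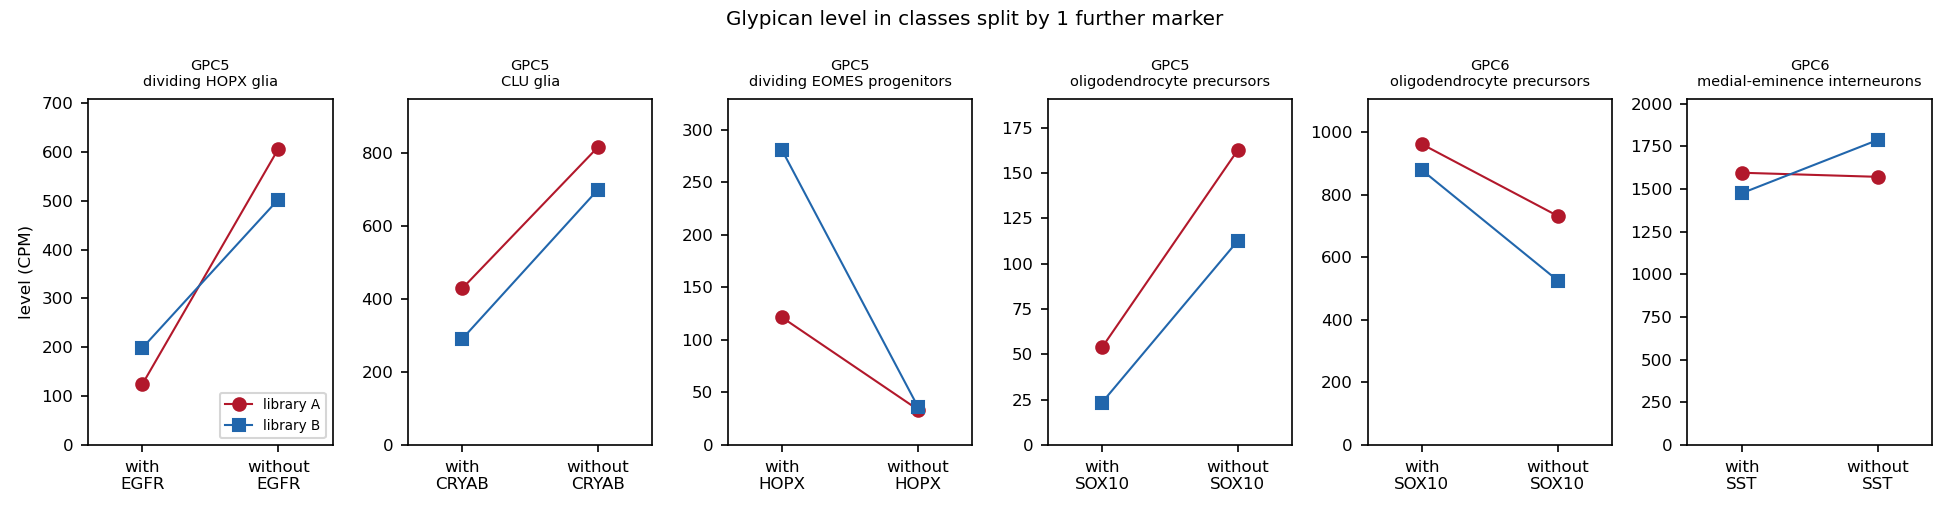
GPC5 or GPC6 level (CPM, y axis from 0, a separate scale per panel) in cells of a class with and without 1 further marker, joined for library A (circles) and library B (squares). GPC5 is lower with EGFR or CRYAB and higher with HOPX in both libraries, its SOX10 split rests on 2 and 6 UMIs in library B, GPC6 is higher with SOX10, and the SST split of GPC6 runs in opposite directions.

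The perivascular value of GPC5 rested on few cells. It was 300.4 CPM in library A and 98.5 CPM in library B, from 41 and 13 UMIs, with 6 positive cells in each library. GDPD2, an anchor-cutting enzyme highest in CLU glia, also stood at 330 and 205 CPM in perivascular cells, against 1625 and 1562 CPM in CLU glia. Whether RNA of other cells entered these cells was not tested.

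GPC3, the relative of GPC5, was low but had the same leading class. It stood at 38.6 CPM (31.2 to 47.3) and 22.6 CPM (14.4 to 34.0) in CLU glia. In excitatory neurons it stood at 1.52 and 1.24 CPM, for ratios of 25.4 (14.6 to 47.2) and 18.3 (6.81 to 61.6). Dividing HOPX glia had 14.7 and 11.2 CPM, below CLU glia in both libraries, although in library B the interval of the ratio (2.02, 0.923 to 4.75) included equal levels. A GPC3 UMI was found in 18.2% and 9.43% of CLU glia, against 0.926% and 1.83% of microglia. The remaining classes other than these 3 held between 0 and 12 UMIs per library, apart from gliogenic progenitors with 15 and 3.

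GPC2 was highest in the excitatory lineage and low in glia. Excitatory neurons had 79.0 CPM (73.6 to 84.8) and 67.0 CPM (59.3 to 75.5), non-dividing EOMES progenitors had 64.3 and 73.4 CPM, and deep-marker excitatory neurons had 54.8 and 82.7 CPM. These 3 classes did not differ beyond the spread between libraries. GPC2 is known in mouse as a glypican of neurons that are growing axons.

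GPC2 was higher in excitatory neurons and non-dividing EOMES progenitors than in dividing EOMES progenitors. Non-dividing EOMES progenitors, at 64.3 and 73.4 CPM, exceeded dividing EOMES progenitors, at 19.6 and 21.4 CPM, by ratios of 3.29 (2.51 to 4.36) and 3.43 (2.30 to 5.23). This is the reverse of GPC6 and of GPC5, whose ratios of dividing over non-dividing progenitors were 4.44 and 4.46. Non-dividing EOMES progenitors with NEUROD2 had GPC2 at 73.1 and 84.9 CPM, against 54.3 and 63.5 CPM without it. Interneurons came next, with 49.6 and 47.8 CPM in caudal-eminence and 43.7 and 33.9 CPM in medial-eminence cells. CLU glia held 3.74 and 5.91 CPM, and excitatory neurons exceeded them by ratios of 21.2 (11.1 to 46.5) and 11.4 (5.15 to 31.2). Microglia read 14.9 and 48.7 CPM (6 and 15 UMIs), a spread wider than that of any neuron class.

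GPC1 had its highest level in CLU glia. It had 63.5 CPM (53.8 to 74.4) and 44.3 CPM (32.3 to 59.3) in CLU glia. Dividing HOPX glia had 33.2 and 23.6 CPM, for ratios of 1.91 (1.42 to 2.61) and 1.88 (1.10 to 3.32) of CLU glia over them. Excitatory neurons had 15.9 and 16.1 CPM. Oligodendrocyte precursors (31.1 and 36.1 CPM), deep-marker excitatory neurons (23.7 and 33.1 CPM) and dividing HOPX glia overlapped one another, and microglia held 0 and 3 UMIs.

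GPC4, the partner of GPC6 in astrocyte-driven synapse formation, was spread over progenitors and glia. CLU glia had 57.7 and 66.9 CPM, dividing HOPX glia 46.9 and 46.1 CPM, and dividing EOMES progenitors 37.7 and 36.5 CPM. Excitatory neurons had 16.8 and 15.8 CPM, and CLU glia exceeded them by ratios of 3.43 (2.72 to 4.32) and 4.23 (2.96 to 6.04). Perivascular cells had 117 CPM in library A and 37.9 CPM in library B, from 16 and 5 UMIs, so their place at the top of library A rests on 33 cells.

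Oligodendrocyte precursors held few GPC4 UMIs. They held 1 UMI in 90 cells of library A and 0 UMIs in 29 cells of library B, where a count of 0 allows up to 21.6 CPM (3 UMIs). Gliogenic progenitors had 24.7 and 26.0 CPM. In library A their level was 11.9 times (2.02 to 480) that of the precursors. In library B their level was 1.20 times that limit, and their interval (15.4 to 41.1 CPM) includes it. The size of a difference is therefore not settled in library B, and none was tested. In the same precursors GPC6 was at its highest among the gated glia.

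The 6 genes were also set against each other across the 13 classes on the log2(CPM + 1) scale. These correlations describe the classes of 1 library at a time, share that library's depth, and carry no test. GPC3 and GPC5 ran together (r = 0.83 and 0.79), and GPC2 and GPC5 ran opposite (r = -0.81 and -0.77). GPC5 and GPC6 had r = 0.39 and 0.52, and GPC3 and GPC4 had r = 0.43 and 0.50. GPC1 and GPC3 had r = 0.40 and -0.01, so that pair has no stable sign.

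Of 12809 genes with at least 10 CPM in some class, those most like each glypican by the lower r of the 2 libraries were listed for the same 13 classes. For GPC5 they were GDPD2 (r = 0.96 and 0.97), which cleaves GPI anchors, the receptor gene NOTCH2 (0.95 and 0.96), the gate marker SLC1A3 (0.93 and 0.95), TCF7L1 (0.93 and 0.92) and ACE (0.93 and 0.92). For GPC3 the closest was GJB6 (0.89 and 0.90), a connexin of astrocytes, followed by DAAM2, BBOX1, MCFD2 and PAQR8. For GPC2 it was ST8SIA2 (0.92 and 0.93), which makes polysialic acid on developing neurons, followed by WDR47, NKAIN2, MLLT3 and STMN2, a microtubule protein of growing axons.

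The remaining glypicans had looser company. GPC6 was most like NCKAP5 (0.85 and 0.85), PEG10 (0.84 and 0.88), PSMD12, PPA2 and PARP8. GPC1 was most like SHC3 (0.80 and 0.87), NSFL1C, CUNH1orf122, EEF1AKMT1 and CTNND2 (0.93 and 0.79), a catenin of neurons and glia. GPC4 was most like VPS54 (0.86 and 0.94), KTI12, EFR3B, SEMA4B and CAPNS1. The 13 classes are few points for such a ranking.

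What glypicans do depends on the sugar chains they carry, on enzymes that trim or release them and on their binding partners. These were followed in 4 lists with 81 genes, of which 66 passed the filter on low counts. UMIs summed per class and library were compared with the quasi-likelihood test of edgeR, p-values were adjusted over 12735 genes by Benjamini and Hochberg, and a call was made at adjusted p below 0.05. The gate markers are not counted among calls. The glypicans are in none of the lists and are not named as calls, but they stay in the counts and shares over all genes. Levels in these comparisons are CPM scaled by the trimmed mean of M values (TMM), averaged where a side holds 2 classes: both EOMES classes, both excitatory classes or both interneuron classes. Differences are fitted log2 fold changes with their standard error (SE), and n is 2 libraries a class. In such sums, more RNA per cell and more cells with the gene cannot be told apart.

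Medial-eminence were compared with caudal-eminence interneurons because GPC6 divides them, a comparison added after its levels were known. Of the 66 list genes, 12 were higher (18.2%, against 3.85% of all 12629 non-marker genes) and 5 were lower (7.58%, against 4.43%). The median log2 difference was 0.07 over the list genes and -0.01 over all genes. Partners of glypicans were most of the calls, with 7 higher and 4 lower of 22.

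LRRTM4, a postsynaptic protein that binds glypicans, was higher in medial-eminence interneurons. It had 419 and 372 CPM in medial-eminence, against 106 and 89.2 CPM in caudal-eminence cells (log2 difference 1.99, SE 0.18, edgeR adjusted p = 3.6e-14). GRIA1, the glutamate receptor subunit whose recruitment to synapses GPC4 and GPC6 promote in rodents, had 1329 and 1133 CPM, against 522 and 489 CPM (log2 difference 1.29, edgeR adjusted p = 5.4e-13). The netrin receptor genes UNC5D (233 and 161 CPM, against 47.1 and 36.9 CPM) and UNC5C (382 and 378 CPM, against 89.7 and 117 CPM) were higher as well, by 2.28 and 1.96. Without TMM scaling, microglia read UNC5D at 261 and 377 CPM, above medial-eminence cells, and UNC5C at 39.7 and 22.7 CPM, below them. The part of free RNA in these calls was not tested.

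Chain and growth factor genes moved in the same comparison. XYLT1, which adds the first sugar of the chain, had 42.5 and 18.6 CPM in medial-eminence cells, against 10.2 and 3.08 CPM in caudal-eminence cells (log2 difference 2.15, SE 0.44, edgeR adjusted p = 0.00019). HS6ST2, a 6-O-sulfotransferase, had 37.9 and 24.8 CPM, against 15.7 and 6.15 CPM (log2 difference 1.40, edgeR adjusted p = 0.021). Both calls were lost when cells were thinned to 1500 UMIs (edgeR adjusted p = 0.16 and 0.20). PTN, a secreted factor that binds heparan sulfate, was higher by 1.60, and PTPRD, a receptor phosphatase of synapses, by 1.17. Without TMM scaling, microglia read XYLT1 at 62.1 and 101 CPM and HS6ST2 at 77.0 and 127 CPM, above medial-eminence cells in both libraries. They read PTN at 373 and 598 CPM, against 530 and 509 CPM in medial-eminence cells. The part of free RNA in these levels was not tested.

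Among the partner genes called lower were SLIT1 and its receptor gene ROBO1. SLIT1, a secreted guidance cue of a family that binds heparan sulfate, had 6.89 and 18.6 CPM in medial-eminence cells, against 178 and 169 CPM in caudal-eminence cells (log2 difference -4.28, SE 0.42, edgeR adjusted p = 8.4e-13). ROBO1 had 73.5 and 86.7 CPM, against 262 and 271 CPM, a log2 difference of -1.81. PTPRS, a neuronal receptor phosphatase that binds GPC4 in rodents, was lower too, with a log2 difference of -0.76, whereas its relative PTPRD was higher.

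**Figure D4:**
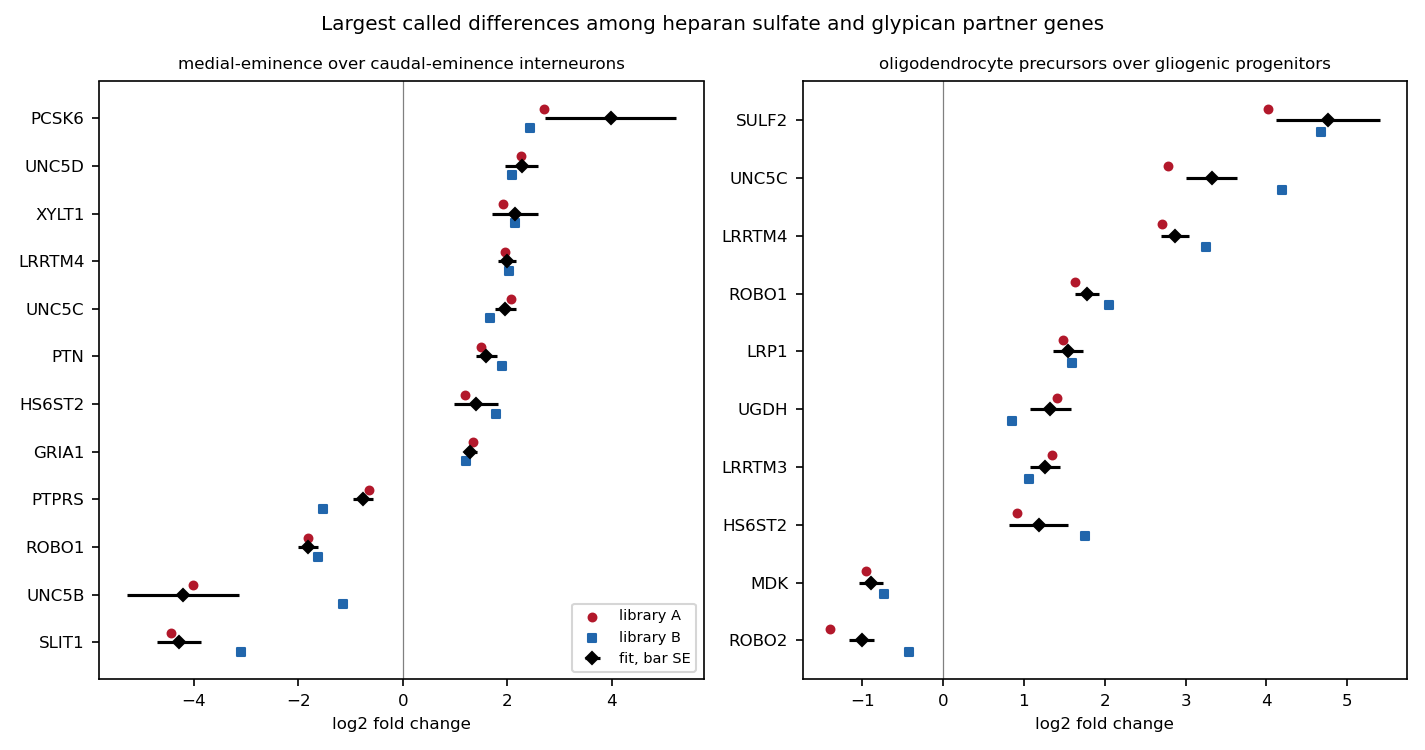
Fitted log2 fold changes (diamonds, bars SE, x axis) with the difference in library A (circles) and library B (squares) for list genes with the largest called differences, leaving out 1 gene that is not reported here and genes with 0 UMIs in 1 class. LRRTM4, UNC5C and HS6ST2 are higher in medial-eminence over caudal-eminence interneurons (left) and in oligodendrocyte precursors over gliogenic progenitors (right), and ROBO1 has opposite signs.

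Oligodendrocyte precursors, the glial class with most GPC6, were compared with gliogenic progenitors. Of 66 list genes, 13 were higher (19.7%, against 6.06% of all genes) and 4 lower (6.06%, against 6.52%), and the list median was 0.25, against -0.09 over all genes. With size factors in place of TMM, calls over all genes were 888 higher and 628 lower in place of 765 and 824, and list calls were 14 and 4.

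Among list genes called, the largest rise was in SULF2, which removes 6-O-sulfates from heparan sulfate outside the cell. It had 77.1 and 71.9 CPM in precursors, against 3.44 and 1.45 CPM in gliogenic progenitors (log2 difference 4.76, SE 0.64, edgeR adjusted p = 3.0e-08). Of 24 chain synthesis genes, 3 rose and 21 were not called, with a list median of 0.02. HS6ST2 had 45.5 and 52.3 CPM, against 23.5 and 14.5 CPM (log2 difference 1.18, edgeR adjusted p = 0.020). UGDH, which makes the glucuronic acid donor of the chain, had 111 and 71.9 CPM, against 40.7 and 39.1 CPM (log2 difference 1.33, edgeR adjusted p = 7.5e-05). In cells thinned to 1500 UMIs, HS6ST2 and UGDH did not pass (edgeR adjusted p = 0.18 and 0.61). Microglia read HS6ST2 above the precursors, at 77.0 and 127 CPM without TMM scaling, and the part of free RNA was not tested.

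Of 22 partner genes, 7 rose in the precursors. LRRTM4 had 549 and 412 CPM, against 83.1 and 42.0 CPM in gliogenic progenitors (log2 difference 2.87, SE 0.18, edgeR adjusted p = 5.0e-21). UNC5C rose by 3.32, ROBO1 by 1.78, LRP1, an endocytic receptor, by 1.55, and LRRTM3 by 1.26 on the log2 scale. SLIT1 had 0 UMIs in the precursors of both libraries, against 8.60 and 42.0 CPM in gliogenic progenitors. ROBO2 (log2 difference -1.01) and the growth factor MDK (-0.89) were also lower.

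Gliogenic progenitors differed from EOMES progenitors in a comparable number of list genes each way. Of 66, 13 were higher (19.7%, against 15.6% of all genes) and 12 lower (18.2%, against 12.3%), which is near the background. GPC6 stood at 446 and 419 CPM in gliogenic progenitors, above both EOMES classes. XYLT1 had 267 and 201 CPM in gliogenic progenitors, against 76.2 and 65.5 CPM in EOMES progenitors (log2 difference 1.73, SE 0.11, edgeR adjusted p = 1.4e-20). The heparin-binding growth factor genes PTN and FGF2 were higher by 1.74 and 2.15, and SDC2, a transmembrane heparan sulfate proteoglycan, by 2.01.

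Of 22 partner genes, 5 were higher and 8 lower. LRRTM3 was among the higher ones (log2 difference 0.96). GPR158, a receptor that binds GPC4 at synapses, had 14.3 and 10.1 CPM in gliogenic progenitors, against 73.9 and 56.2 CPM in EOMES progenitors (log2 difference -2.28, edgeR adjusted p = 1.1e-12). UNC5D (-1.85), ROBO1 (-2.56), SPOCK1, a secreted proteoglycan (-2.11), and NDST3, an N-sulfotransferase of the chain (-2.25), were lower as well. NDST3 rested on 2.87 and 0 CPM, against 8.73 and 13.1 CPM.

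CLU glia, the gated class with the highest GPC5, GPC3 and GPC1, were compared with dividing HOPX glia. With graph clusters in place of gates GPC5 was highest in dividing HOPX glia in both libraries (mean 683 CPM in CLU glia, against 725 CPM in dividing HOPX glia), and in thinned cells GPC3 was highest in perivascular cells in library B. Of 66 list genes, 18 were higher (27.3%, against 10.5% of all genes) and 4 lower (6.06%, against 13.1%), and the list median was 0.33, against 0.00 over all genes. With size factors in place of TMM, calls over all genes were 1679 higher and 1455 lower in place of 1328 and 1658, and list calls were 24 and 2. Dividing cells have more UMIs (median 7390 and 6411, against 5095 and 4677 in CLU glia), and in cells thinned to 1500 UMIs the list calls numbered 13 in place of 22.

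GDPD2, the anchor-cutting enzyme that tracked GPC5, had 1636 and 1517 CPM in CLU glia, against 682 and 565 CPM in dividing HOPX glia (log2 difference 1.32, SE 0.13, edgeR adjusted p = 3.0e-13). Of 9 other cores, 5 were higher, among them SDC2 (log2 difference 0.69), SDC3 (0.85) and AGRN (0.62), and SPOCK1 was lower (-0.77, edgeR adjusted p = 0.049). The partner genes LRRTM3 (243 and 188 CPM, against 119 and 73.2 CPM), LRRTM4 (77.3 and 74.5 CPM, against 28.9 and 45.5 CPM) and LRP1 were higher by 1.12, 1.13 and 1.28. PTN had 6689 and 6475 CPM, against 3009 and 2897 CPM, a log2 difference of 1.16.

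Among chain genes HS3ST1, a 3-O-sulfotransferase, was higher in CLU glia (228 and 179 CPM, against 107 and 95.4 CPM, log2 difference 1.01). FAM20B, a kinase that acts on the linker of the chain, was lower (29.2 and 23.9 CPM, against 52.1 and 52.1 CPM, log2 difference -0.94, edgeR adjusted p = 0.00074). HS6ST2 was called lower with a log2 difference of -0.82 (edgeR adjusted p = 0.041), a call that 6 other settings lost and that turned to 0.31 in thinned cells.

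Excitatory neurons, among the 3 classes with the highest GPC2, were compared with EOMES progenitors. Of 66 list genes, 20 were higher (30.3%, against 17.0% of all genes) and 15 lower (22.7%, against 21.8%). Among sulfotransferase genes 3 rose. HS6ST2 had 181 and 179 CPM in excitatory neurons, against 26.8 and 23.8 CPM in EOMES progenitors (log2 difference 2.84, SE 0.13, edgeR adjusted p = 8.8e-29). HS3ST1 rose by 2.07 (184 and 155 CPM, against 41.2 and 41.6 CPM) and HS3ST5 by 3.96 (28.6 and 29.1 CPM, against 1.32 and 1.76 CPM). Most of the HS3ST5 level came from the small deep-marker class. Without TMM scaling it stood there at 45.9 and 45.5 CPM, against 10.0 and 12.4 CPM in the other excitatory neurons.

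Of 22 partner genes, 12 rose with them. UNC5D, the receptor that GPC3 binds in rodents, had 1518 and 1266 CPM in excitatory neurons, against 397 and 309 CPM in EOMES progenitors (log2 difference 2.20, SE 0.11, edgeR adjusted p = 4.2e-26). GPR158 rose by 1.01 and LRRTM4 by 0.85. NPTX2 and NPTXR, pentraxins that gather glutamate receptors at synapses, rose by 3.11 and 2.40. GDPD2 (-2.17), MDK (-1.66) and SULF1, a second 6-O-sulfatase (-1.77), were lower in excitatory neurons.

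Inhibitory neurons, as the mean of both interneuron classes, were set against excitatory neurons. Of 66 list genes, 9 were higher (13.6%, against 8.19% of all genes) and 20 lower (30.3%, against 12.3%). The sulfotransferase genes that rose in excitatory neurons were at low levels here, with HS3ST1 at 1.39 and 10.8 CPM in inhibitory neurons, against 184 and 155 CPM in excitatory neurons (log2 difference -6.10, SE 0.34, edgeR adjusted p = 1.4e-24). HS6ST2 had 26.8 and 15.5 CPM, against 181 and 179 CPM (-2.99), and HS3ST5 had 5.65 and 7.73 CPM, against 28.6 and 29.1 CPM (-1.94). For HS3ST5 the excitatory level came mostly from the deep-marker class. Without TMM scaling, HS3ST1 stood at 0 and 6.79 CPM in medial-eminence cells and at 2.81 and 15.9 CPM in caudal-eminence cells. The size of its difference therefore rests on few UMIs on the inhibitory side.

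Partner genes were mostly lower in inhibitory neurons, 12 of 22, with UNC5D at -3.76, SLIT2 at -3.84, ROBO1 at -3.07 and GPR158 at -2.13. GRIA1 was higher, with 926 and 811 CPM in inhibitory neurons, against 93.2 and 77.2 CPM in excitatory neurons (log2 difference 3.26, SE 0.11, edgeR adjusted p = 8.1e-37). SDC2 (2.74) and SLIT1 (2.65) were higher too. SLIT1 came from caudal-eminence cells, at 181 and 175 CPM without TMM scaling, against 7.08 and 20.4 CPM in medial-eminence cells.

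Endothelial cells, the larger vascular class, were set against CLU glia. Of 66, 18 were higher (27.3%, against 22.0% of all genes) and 18 lower (27.3%, against 18.8%). Of 11 genes listed for chain editing and core release, 5 were higher in endothelial cells and 3 lower. GDPD5, a relative of GDPD2 that cuts GPI anchors, had 46.4 and 49.4 CPM in endothelial cells, against 0 and 1.91 CPM in CLU glia (log2 difference 6.15, SE 0.70, edgeR adjusted p = 2.8e-11). NOTUM, a secreted enzyme of the same list, had 24.8 and 48.1 CPM, against 0 UMIs in CLU glia of both libraries (edgeR adjusted p = 1.1e-10).

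Of 9 other cores, 5 were higher in endothelial cells and 3 lower. COL18A1, a basement membrane core, had 279 and 344 CPM in endothelial cells, against 12.9 and 17.2 CPM in CLU glia (log2 difference 4.43, SE 0.22, edgeR adjusted p = 2.9e-27). TGFBR3, a transmembrane core, had 24.8 and 39.2 CPM, against 2.92 and 6.69 CPM (log2 difference 2.75), and AGRN was higher by 1.48. GDPD2 (-3.92), PTN (-3.45), LRRTM3 (-2.49) and HS3ST1 (-2.13) were lower in endothelial cells. UNC5D was called higher by 3.37, at 362 and 423 CPM, against 34.7 and 44.9 CPM. It was also read at 261 and 377 CPM in microglia, without TMM scaling, beside the free RNA of excitatory neurons, whose part in the call was not tested.

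The chain polymerase genes were seldom called over the 7 comparisons. EXT1, 1 of the 2 polymerase subunits, was not called in any of them, with log2 differences of -0.20 to 0.30. EXT2, the other subunit, ranged from -0.21 to 0.65 and was called in 1, at 0.64 in inhibitory over excitatory neurons (edgeR adjusted p = 0.032). HS6ST2, XYLT1 and HS3ST1 were called in 6, 5 and 4 of the 7. In all, 181 of 462 tests of list genes were called, and the share of all genes called is given with each comparison above. In 178 of these calls the 2 libraries had the same direction. The calls were made from the same 2 libraries, so this is no separate replication.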

How the data were processed

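Single-cell RNA-seq libraries of 2 replicates were deposited as 1 matrix of UMI counts per gene and cell, made by the authors with Cell Ranger, per the submitters' processing notes. The sources used here name neither the genome build nor whether intronic reads were counted. Cells under 500 genes or over 10% mitochondrial UMIs were removed (14 cells). Scrublet called 0 doublets, which does not show that there were none, and 504 cells scored above 0.2. Classes were gated on marker UMIs with Python 3.11.15 and scanpy 1.11.5. UMIs were summed per class and library (26 sums) and tested with edgeR 4.0.16 in R 4.3.3, using TMM scaling, a filter on low counts and the library as a block, since each library gave every class. Alternatives were other size factors, DESeq2 1.42.0, no filter, no block, a stricter gate, thinned cells, doublet removal, graph clusters and each library alone. P-values measure only the spread between these 2 libraries that remains after the block, estimated over all classes together (12 residual degrees of freedom). That spread is not estimated from the compared classes alone. The fit was tested on simulated data (gliogenic over EOMES progenitors, 11612 genes), where 66% of 100 genes changed 2-fold and 98% of 100 changed 4-fold were recovered. The simulated classes shared a common mean profile and a fixed dispersion, with no library effect, and the changed genes were not low ones. These rates therefore need not hold for the calls above. Named list genes were up to 8 higher and 8 lower per comparison, by the largest fitted change among those called with the same direction in both libraries, and for each glypican the 5 genes with the most similar levels; further list genes, markers and within-class splits were chosen after their values were seen. The members and lists were chosen with earlier results of these data known. Erythroid cells were too few to give the level of free RNA, so microglia were used. Intervals and limits cover counting error only. Results of 1 list gene are not reported here by name, and it stays in the counts.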

Additional observations from a re-analysis of the deposited data

How the results depend on the processing

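Thinning cells to 1500 UMIs moved the number of genes called to 1702 in gliogenic over EOMES progenitors (3527 without thinning), 1331 in CLU over dividing HOPX glia (2986), 586 in oligodendrocyte precursors over gliogenic progenitors (1589), 2550 in excitatory neurons over EOMES progenitors (4901), 1525 in inhibitory over excitatory neurons (2584) and 3251 in endothelial cells over CLU glia (5161). List calls became 13 in CLU over dividing HOPX glia (22) and 23 in excitatory neurons over EOMES progenitors (35). Fewer UMIs enter these fits by construction. The log2 difference of HS6ST2 in CLU over dividing HOPX glia turned to 0.31 (edgeR adjusted p = 0.84), and the cause was not tested. The other 113 counts stayed within 1.5 times. Without the replicate block, calls in the same order were 3185, 2604, 1430, 4564, 2441 and 4898, and 907 in medial-eminence over caudal-eminence interneurons (1046 with it). The class with the highest level also changed for GPC2 in library B (non-dividing EOMES progenitors, in thinned cells and with graph clusters) and GPC4 in library A (CLU glia, with the stricter gate and with graph clusters). For GPC4, perivascular cells of library A were no longer ranked, as 19 (stricter gate) and 15 (clusters) fell under the 20 cells needed. No graph cluster was named for deep-marker excitatory neurons, which led GPC2 in library B. Only the GPC2 change in thinned cells therefore came from a ranking of the same classes. The stricter gate left under 20 oligodendrocyte precursors in library B, so that comparison was not run with it. Each library alone gives values with no test.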
